A study of Mus musculus with 4 samples.

Results

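Enterochromaffin cells, the serotonin-producing endocrine cells of the gut lining, were described in a pair of single-cell libraries from mouse intestine. A barcode was kept with at least 500 UMIs (unique molecular identifiers, each counted as 1 captured transcript), at least 200 genes and at most 20% of UMIs from mitochondrial genes. It was taken as an enterochromaffin cell when it held at least 3 raw UMIs of Tph1 and Tac1 together, at least 2 of Chga and Chgb together and none of Ptprc, the pan-leukocyte gene. The rule found 57 cells among 27614 kept intestinal barcodes (51471 kept barcodes in all 4 libraries of the series). Of these, 43 came from the intestine of mice under 1 week of NPs treatment and 14 from the intestine of untreated mice. Both groups were labelled WT and gave 1 library each, so a difference between them has no replicate check and no test was made. NPs was not spelled out in the labels, which also gave neither the number of animals per library nor the strain of each tissue. BALB/c mice aged 5 weeks and ICR mice aged 6 months were named for the intestine and brain material together. The labels called the tissue intestine, whereas the description of the series spoke of colon. A further pair of libraries, from brain after 2 months of NPs treatment and from untreated brain, held 1 and 3 barcodes that met the same rule and was not used.

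Enterochromaffin cells make most of the serotonin of the body. Tryptophan hydroxylase 1, from Tph1, carries out the rate-limiting step, and the decarboxylase Ddc completes the synthesis. The vesicular transporter Slc18a1 loads serotonin into dense-core granules, whose matrix holds the granins Chga and Chgb. Many of the cells also make the tachykinin substance P from Tac1. They sense stretch, irritants and microbial metabolites, and their granules are released by calcium-dependent exocytosis onto nearby nerve endings and epithelial cells.

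The gene starts of the rule genes are shown because these genes carry the identity of the cells. On GRCm38, Tph1 lies at chr7:46644641-46672537 on the minus strand, Tac1 at chr6:7554879-7565834, Chga at chr12:102554969-102565028 and Chgb at chr2:132781278-132795079, the last 3 on the plus strand. Each sequence runs 5′ to 3′ on the strand of the gene, from 250 bases before to 50 bases after a RefSeq start on GRCm38.p6. The windows are chr2:132781392-132781691 for Chgb, chr12:102554691-102554990 for Chga, chr6:7554811-7555110 for Tac1 and chr7:46672488-46672787 for Tph1. Capitals mark TGACGT on either strand, the core of the cyclic AMP response element bound by CREB-family factors.
Chgb: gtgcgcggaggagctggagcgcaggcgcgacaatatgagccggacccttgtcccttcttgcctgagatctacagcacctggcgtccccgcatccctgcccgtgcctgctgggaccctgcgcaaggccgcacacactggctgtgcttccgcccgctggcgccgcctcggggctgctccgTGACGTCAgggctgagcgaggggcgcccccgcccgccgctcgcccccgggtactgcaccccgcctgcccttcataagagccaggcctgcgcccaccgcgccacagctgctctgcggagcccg
Chga: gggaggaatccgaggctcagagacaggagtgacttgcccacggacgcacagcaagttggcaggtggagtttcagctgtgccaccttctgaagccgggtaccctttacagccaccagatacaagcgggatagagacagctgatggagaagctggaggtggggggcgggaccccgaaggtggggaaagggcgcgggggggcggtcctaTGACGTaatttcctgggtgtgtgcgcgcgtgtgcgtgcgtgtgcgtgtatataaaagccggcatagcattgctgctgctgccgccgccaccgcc
Tac1: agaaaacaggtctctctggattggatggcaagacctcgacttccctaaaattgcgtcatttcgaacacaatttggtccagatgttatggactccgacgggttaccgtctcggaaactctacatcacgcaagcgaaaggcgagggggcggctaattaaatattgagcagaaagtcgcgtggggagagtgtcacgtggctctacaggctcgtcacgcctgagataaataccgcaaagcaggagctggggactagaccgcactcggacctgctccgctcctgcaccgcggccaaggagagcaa
Tph1: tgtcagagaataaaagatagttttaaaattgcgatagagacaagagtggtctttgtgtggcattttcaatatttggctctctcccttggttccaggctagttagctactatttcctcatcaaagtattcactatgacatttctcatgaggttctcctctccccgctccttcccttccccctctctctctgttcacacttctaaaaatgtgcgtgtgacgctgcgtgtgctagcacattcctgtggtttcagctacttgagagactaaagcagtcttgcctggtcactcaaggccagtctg
The Chgb window held the palindrome TGACGTCA, which is a pair of overlapping matches on opposite strands that begin 72 and 70 bases before the start. The Chga match began 44 bases before the start. The windows of Tac1 and of both listed Tph1 starts, the other at chr7:46667328-46667627, held no match to these letters. Among all 32851 promoters of the table, 2468 (7.51%) held TGACGT. These are matches of letters only.

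Enterochromaffin cells made up 0.404% of kept barcodes in the NPs library (43 of 10647, exact binomial 95% interval 0.292 to 0.544%) and 0.0825% in the untreated library (14 of 16967, 0.0451 to 0.138%). All intervals given here cover counting error only. Among barcodes with at least 2 granin UMIs and no Ptprc, the endocrine barcodes, the share was 37.7% in NPs (43 of 114, 28.8 to 47.3%) and 12.6% in untreated (14 of 111, 7.07 to 20.3%). With at least 2000 UMIs required, it was 45.1% in NPs (32 of 71, 33.2 to 57.3%) and 19.2% in untreated (10 of 52, 9.63 to 32.5%). Of barcodes with the epithelial gene Epcam, the share was 0.446% in NPs and 0.181% in untreated. The cells were thus a larger share in the NPs library on each denominator. Of all barcodes, 46.5% in the NPs library and 16.7% in the untreated library exceeded the mitochondrial limit, among them 2 and 1 that otherwise met the rule.

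Depth was similar in the cells themselves. The median was 6018 UMIs (730 to 74919) in NPs cells and 7002 (967 to 29365) in untreated cells, with 2698 and 2968 genes. Other kept barcodes had a median of 6298 UMIs in the NPs library and 2463 in the untreated library. The mitochondrial share of the cells had a median of 4.36% in NPs and 2.35% in untreated. Summed over cells, there were 482653 UMIs in NPs and 113635 in untreated. The libraries shared 49 kept barcode sequences, none of them in an enterochromaffin cell. Epcam was found in 41 of 43 NPs cells and 14 of 14 untreated cells.

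At the edges of the rule, 3 NPs cells and 1 untreated cell had exactly 3 UMIs of Tph1 and Tac1 together. Just outside it, 5 NPs and 10 untreated endocrine barcodes had 2 such UMIs, 14 and 15 had 1, and 52 and 72 had none. No cell had exactly 2 granin UMIs. Barcodes that met the Tph1 and Tac1 limit without Ptprc but had under 2 granin UMIs numbered 12 in NPs and 42 in untreated. At least 3 UMIs of mast cell genes, another cell type that uses Tph1, were found in 4 of those NPs barcodes and 27 of those untreated barcodes. In the chosen cells, no NPs cell held a mast gene UMI other than of Kit and the highest untreated count of the other mast genes was 1. A further 2 barcodes in each library met all else and held Ptprc.

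The genes used by the rule are given as a description. Levels are UMIs summed over the cells of a library, as counts per 1000000 of their summed UMIs (CPM). Chgb was the highest of the rule genes, at 16324 CPM in NPs cells and 22071 CPM in untreated cells, against 11.1 and 11.0 CPM in all other kept barcodes of those libraries. Chga stood at 3195 CPM in NPs cells and 3291 CPM in untreated cells. Tph1 stood at 1075 CPM in NPs cells and 2402 CPM in untreated cells, a ratio of 0.448 (95% interval 0.386 to 0.520, conditional binomial). Tac1 stood at 1193 CPM in NPs cells and 1866 CPM in untreated cells. The Tph1 ratio depended on how cells were weighted. The median over cells was 2118 CPM in NPs and 1862 CPM in untreated, and the ratio of means over cells was 0.03 on the log2 scale. Of NPs cells, 34 held both Tph1 and Tac1, 7 only Tph1 and 2 only Tac1; of untreated cells, 8 held both, 3 only Tph1 and 3 only Tac1.

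**Figure D1:**
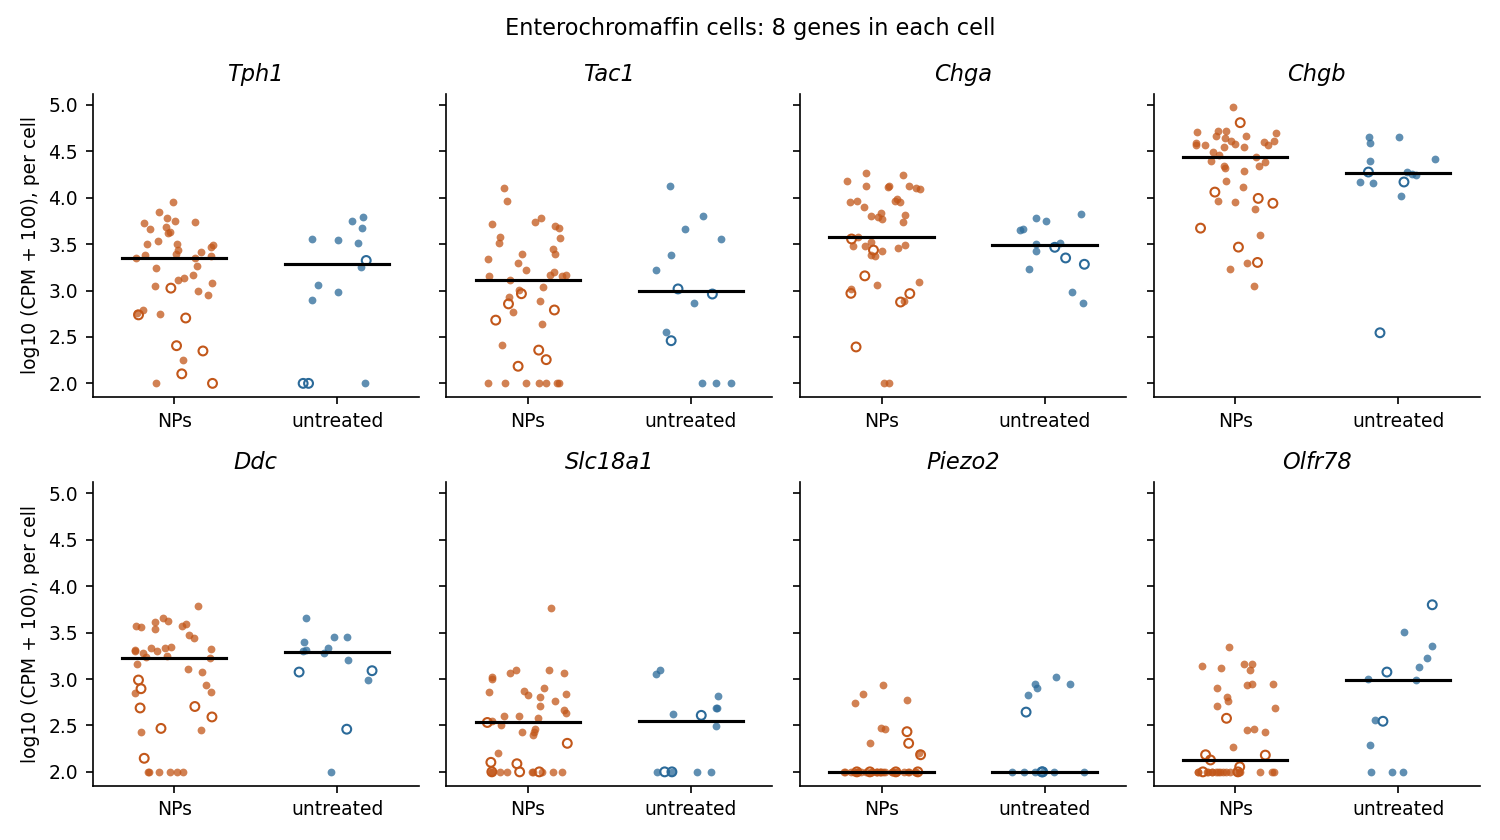
Level of 8 genes in each cell, as log10 of CPM plus 100, with NPs cells on the left and untreated cells on the right of each panel. Chgb is the highest in both groups, with a median of 27666 CPM in NPs cells and 18455 CPM in untreated cells, and the groups overlap in every panel.

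The remaining steps of serotonin handling were present in both libraries. Ddc stood at 926 CPM in NPs cells and 1681 CPM in untreated cells, ratio 0.551 (0.464 to 0.656), and was also found in other barcodes, at 23.9 and 70.2 CPM. Slc18a1 stood at 176 CPM in NPs cells and 326 CPM in untreated cells, ratio 0.541 (0.364 to 0.819), but a log2 ratio of 0.56 as means over cells. Gch1, which starts the synthesis of the hydroxylase cofactor tetrahydrobiopterin, stood at 108 and 88.0 CPM, ratio 1.22 (0.616 to 2.70). Maoa, the monoamine oxidase that breaks serotonin down, was the 1 gene of this list past 2-fold upward, at 267 CPM in NPs cells and 106 CPM in untreated cells. It was lower in these cells than in other barcodes, at 445 and 455 CPM. Fev and Lmx1a, transcription factors of the serotonergic programme, were close, at 112 and 110 CPM in NPs cells and 132 and 114 CPM in untreated cells.

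The genes that stood furthest above all other kept barcodes were endocrine genes in both libraries. Because the cells were chosen by marker genes, these ratios describe the cells and are no test. Among 4139 genes measured in both libraries, 41 (0.991%) were at least 16-fold higher in both. After the rule genes, the list was led by Olfr78, a receptor for short-chain fatty acids and lactate, at 837-fold in NPs (528 to 1375) and 930-fold in untreated (720 to 1200). Lmx1a followed at 711-fold in NPs and 1598-fold in untreated. Rab3c, a small GTPase of secretory vesicles, stood at 650- and 942-fold, and the amino acid transporter gene Slc38a11 at 605- and 1210-fold. Scn3a, a voltage-gated sodium channel, stood at 467- and 1012-fold. The fusion protein gene Snap25 (337- and 533-fold) and Cadps, which primes dense-core granules (284- and 334-fold), belong to the release machinery. Fev (257- and 399-fold), Insm1 (220- and 249-fold), Pcsk1n (254- and 328-fold), Ptprn (203- and 211-fold) and Fam19a1 (295- and 197-fold) completed the first 12. Insm1 is an endocrine transcription factor, Pcsk1n encodes the granule protein proSAAS, and Ptprn encodes a granule membrane protein.

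**Figure D2:**
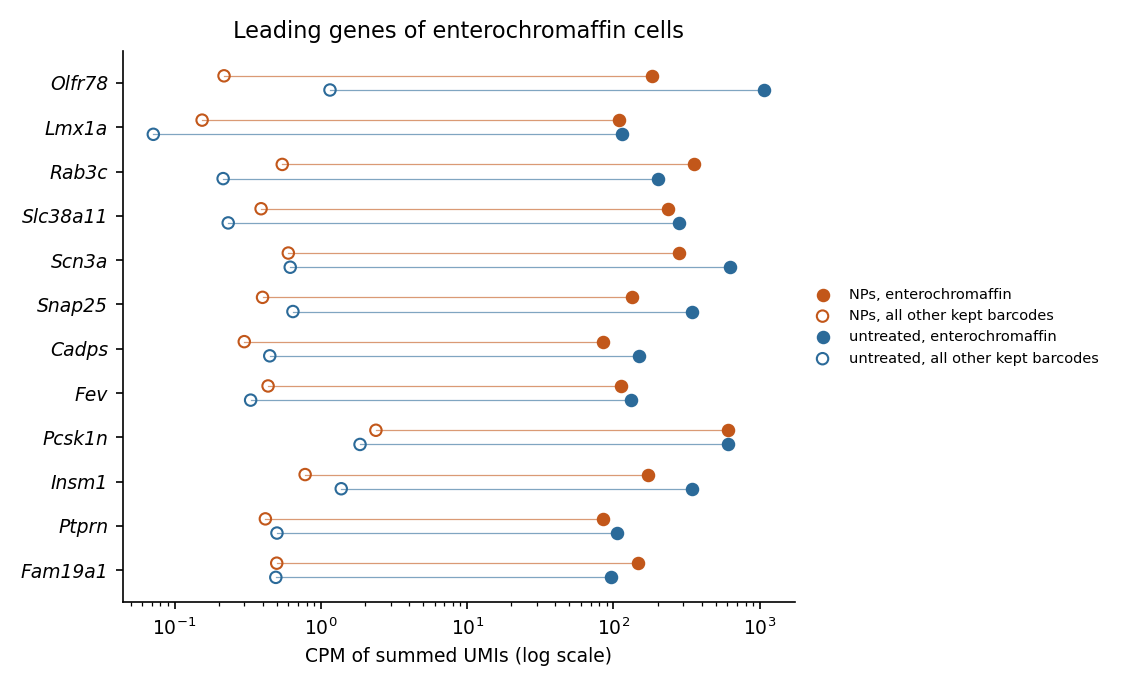
CPM of summed UMIs on a log scale for the 12 genes outside the rule with the largest ratios, in enterochromaffin cells (filled) and in all other kept barcodes (open), NPs above untreated within each gene. Every filled point lies at least 197-fold to the right of its open point, from Olfr78 at 837- and 930-fold down to Fam19a1 at 295- and 197-fold.

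Other endocrine cells were barcodes with at least 3 UMIs of Gcg, Pyy, Insl5 and Nts together and at least 2 of the granins, without Ptprc and outside the enterochromaffin rule. There were 20 in NPs (276855 UMIs) and 26 in untreated (310672 UMIs). Among 2774 genes measured, 13 (0.469%) were at least 4-fold higher in enterochromaffin cells in both libraries and 12 (0.433%) at least 4-fold lower. Within NPs alone the shares were 0.757% and 1.23%, and within untreated alone 2.2% and 1.08%. All 13 higher genes and 7 of the 12 lower genes were past 4-fold also among the 47 cells defined further on.

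Apart from the rule genes Tph1, Tac1 and Chgb, the genes higher than in other endocrine cells included the serotonin genes Slc18a1 and Ddc. Slc18a1 was 48.8-fold higher in NPs (8.52 to 1948) and 50.6-fold higher in untreated (13.05 to 433). Ddc was 5.57-fold higher in NPs and 5.17-fold higher in untreated. Slc38a11 had 114 UMIs in NPs and 32 UMIs in untreated enterochromaffin cells, and 0 in the other endocrine cells of both. With 3 counts set in place of each 0, per library, it was at least 21.8-fold higher in NPs and at least 29.2-fold higher in untreated. Olfr78 was at least 16.8-fold higher in NPs and 11.9-fold higher in untreated (7.85 to 18.7). The vesicle GTPase Rab27b was 10.0-fold higher in NPs (2.58 to 86.1) and 10.9-fold higher in untreated (5.37 to 24.5), and Rab3c 9.81- and 6.99-fold. Piezo2, a stretch-gated ion channel through which these cells respond to force, was 4.78-fold higher in NPs (1.46 to 24.7) and 6.33-fold higher in untreated (3.62 to 11.5). Atf6, a sensor of the unfolded protein response, stood 5.91-fold higher in NPs and 23.8-fold higher in untreated, followed by Dusp16 (4.95- and 8.20-fold), which encodes a phosphatase of MAP kinases, and Gstt1 (4.70- and 5.08-fold), which encodes a glutathione transferase.

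The genes lower than in other endocrine cells were mainly peptide hormones and their regulators. Somatostatin, Sst, had 0 UMIs in enterochromaffin cells of both libraries, against 10984 CPM in the other endocrine cells of NPs and 10294 CPM in those of untreated, at least 1767-fold and 390-fold lower. These levels came from 10 of 20 other endocrine cells in NPs and 3 of 26 in untreated, so a few cells carry them. Ppy, pancreatic polypeptide, found in 4 other endocrine cells of each library, was at least 757-fold lower in NPs and 51.6-fold lower in untreated. Ghrl, ghrelin, had 2 UMIs in NPs enterochromaffin cells, a ratio of 0.00998 (0.00119 to 0.0369), and was at least 86.3-fold lower in untreated. Hhex, a transcription factor of somatostatin cells, had a ratio of 0.0837 in NPs (0.0319 to 0.186) and was at least 5.85-fold lower in untreated, and the islet factor Isl1 had 1 UMI in NPs enterochromaffin cells, a ratio of 0.00645 (0.000161 to 0.0368), and was 5.00-fold lower in untreated. The others included the amino acid transporter Slc6a19, the glutamate receptor subunit Gria2, the potassium channel subunit Abcc8, and Gcg, Insl5 and Pyy. Those last 3 had been used to choose the other endocrine cells.

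The 57 cells were uneven. In NPs, 6 cells had more than 3 times the median UMIs of the group (19398 to 74919) and held 56.3% of its UMIs. In untreated, 1 such cell (29365 UMIs) held 25.8%. Among these NPs cells, the cell with 56721 UMIs held 6426 UMIs of goblet cell markers, Muc2 among them with 1571. It also held 5050 UMIs of Mptx1 and 1979 of Retnlb, beside 7 of Tph1 and 161 of Chgb. A further 3 held 1517, 1257 and 691 goblet marker UMIs. The largest NPs cell held 2080 UMIs of Car1, a carbonic anhydrase of absorptive colonocytes. The large untreated cell held 35 goblet marker UMIs, with 59 UMIs of Tph1 and 553 of Chgb. No enterochromaffin cell had a Scrublet doublet score above 0.113 in NPs or 0.048 in untreated, on a scale where 0.25 was the limit tried. Scrublet's own threshold marked 0 barcodes in NPs and 6 in untreated, too few for the caller to have worked.

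A second kind of unevenness came from peptide hormones. At least 50 UMIs of Gcg, Pyy, Insl5 and Nts together were found in 1 NPs cell and 2 untreated cells. The NPs cell held 351 UMIs of Pyy and 162 of Nts among 7729, beside 4 of Tac1 and none of Tph1. An untreated cell of 15942 UMIs held 4888 of Pyy, 1404 of Insl5 and 453 of Gcg, beside 3 of Tac1 and none of Tph1. The other untreated cell held 124 of Pyy. Without these deep and peptide-rich cells, 47 cells were left, 36 in NPs (203260 UMIs) and 11 in untreated (63018 UMIs). For the lists and for many genes, values for these 47 cells are given below beside those of all cells. In them Chgb stood at 29263 CPM in NPs and 29722 CPM in untreated, Chga at 6401 and 4237 CPM, Tac1 at 2480 and 2856 CPM, and Tph1 at 2165 and 3396 CPM.

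**Figure D3:**
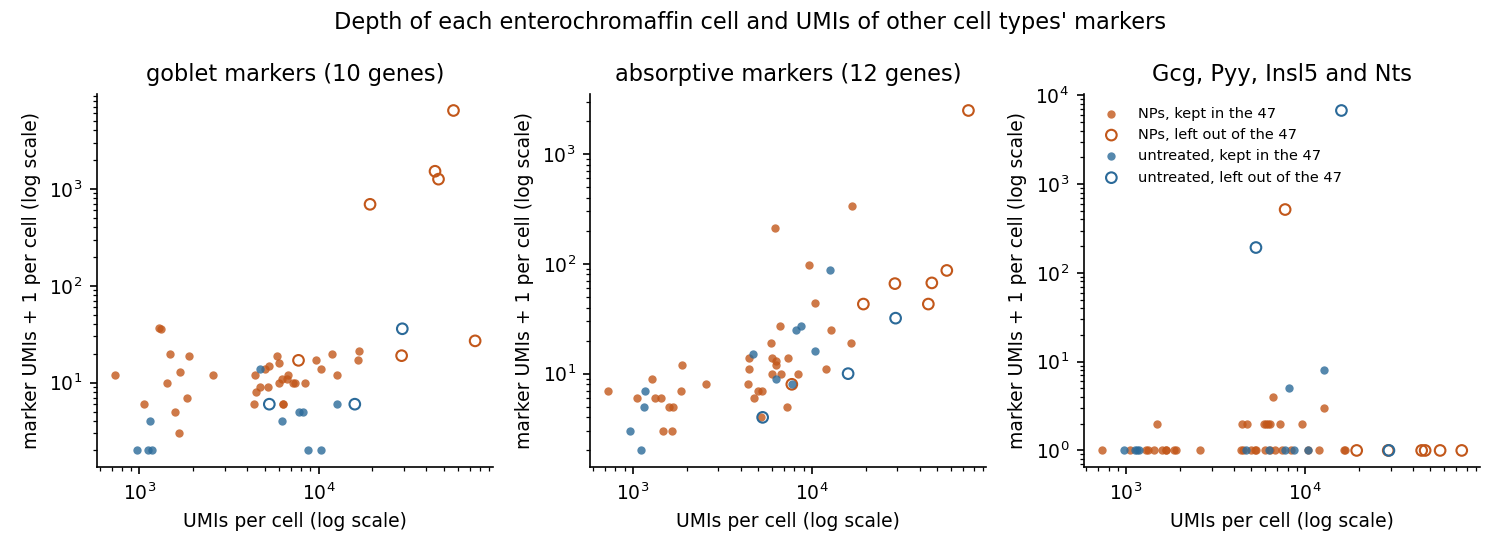
UMIs of goblet markers (left), absorptive markers (middle) and the peptides Gcg, Pyy, Insl5 and Nts (right) in each cell, plus 1, against the UMIs of that cell, all on log scales. Open circles are the 10 cells left out of the 47, among them the NPs cell with 6426 goblet marker UMIs and the untreated cell with 6745 peptide UMIs.

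Cells also differed in Tac1. At least 3 Tac1 UMIs were found in 31 NPs and 10 untreated cells, and none in 7 NPs and 3 untreated cells. Depth differed with the split, with a median of 6642 UMIs in Tac1-rich and 1583 in Tac1-free cells of NPs, and of 7473.5 and 4702 in those of untreated. Among 739 genes measured, 31 (4.19%) were at least 2-fold higher in Tac1-rich than in Tac1-free cells in both libraries, Tac1 itself included, and 3 (0.406%) at least 2-fold lower. Most calls were made in 1 library only, since 170 genes were higher and 47 lower in NPs, and 146 higher and 80 lower in untreated. Whether 31 and 3 exceed the overlap of unrelated calls was not tested. The counts are thus no result about Tac1-rich cells, and the genes below only describe them. Chga, itself a rule gene, was 2.59-fold higher in NPs (1.84 to 3.78) and 2.51-fold higher in untreated (1.58 to 4.23). Chgb, the other granin of the rule, did not follow in both, with ratios of 1.87 in NPs (1.64 to 2.15) and 1.02 in untreated (0.899 to 1.15). The 31 also included genes that are not granule genes, such as Car2, Ybx1 and Lamtor4. Pcsk1n was 2.69-fold higher in NPs (1.22 to 7.39) and 2.96-fold higher in untreated (0.963 to 14.8). Resp18, another dense-core granule protein gene, had no UMI in Tac1-free cells and was at least 2.02-fold higher in NPs and at least 6.01-fold higher in untreated. Most of its untreated UMIs lay in 1 cell, as given further on. All 3 peptide-rich cells fell in the Tac1-rich groups, where Pyy was at least 6.90-fold higher in NPs and 192-fold higher in untreated. The split thus partly sets peptide-rich cells apart. Past 2-fold lower in Tac1-rich cells were Cryba2, with ratios of 0.301 in NPs and 0.238 in untreated, Tent5a, with 0.314 and 0.344, and Vasp, with 0.472 and 0.349. Of these, Tent5a alone had intervals below 1 in both libraries. Tph1 was not compared, since the rule admits a cell without Tac1 only with at least 3 Tph1 UMIs.

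The comparison of NPs with untreated cells was made on the summed UMIs. A gene was measured with a mean of at least 30 CPM over the libraries and at least 20 UMIs in both together, which 4738 genes passed. Of these, 573 (12.1%) were at least 2-fold higher in NPs cells and 421 (8.89%) at least 2-fold lower, with a median log2 ratio of 0.02. In the 47 cells, 2560 genes were measured, of which 328 (12.8%) were higher and 237 (9.26%) lower, for a median log2 ratio of -0.01. The genes past 2-fold in both sets of cells numbered 181 higher and 126 lower. These shares are the background for every list below, and a count near them is no result about the list. Lists are described by counts and medians, with a gene at 0 UMIs in 1 library entered at its bound.

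**Figure D4:**
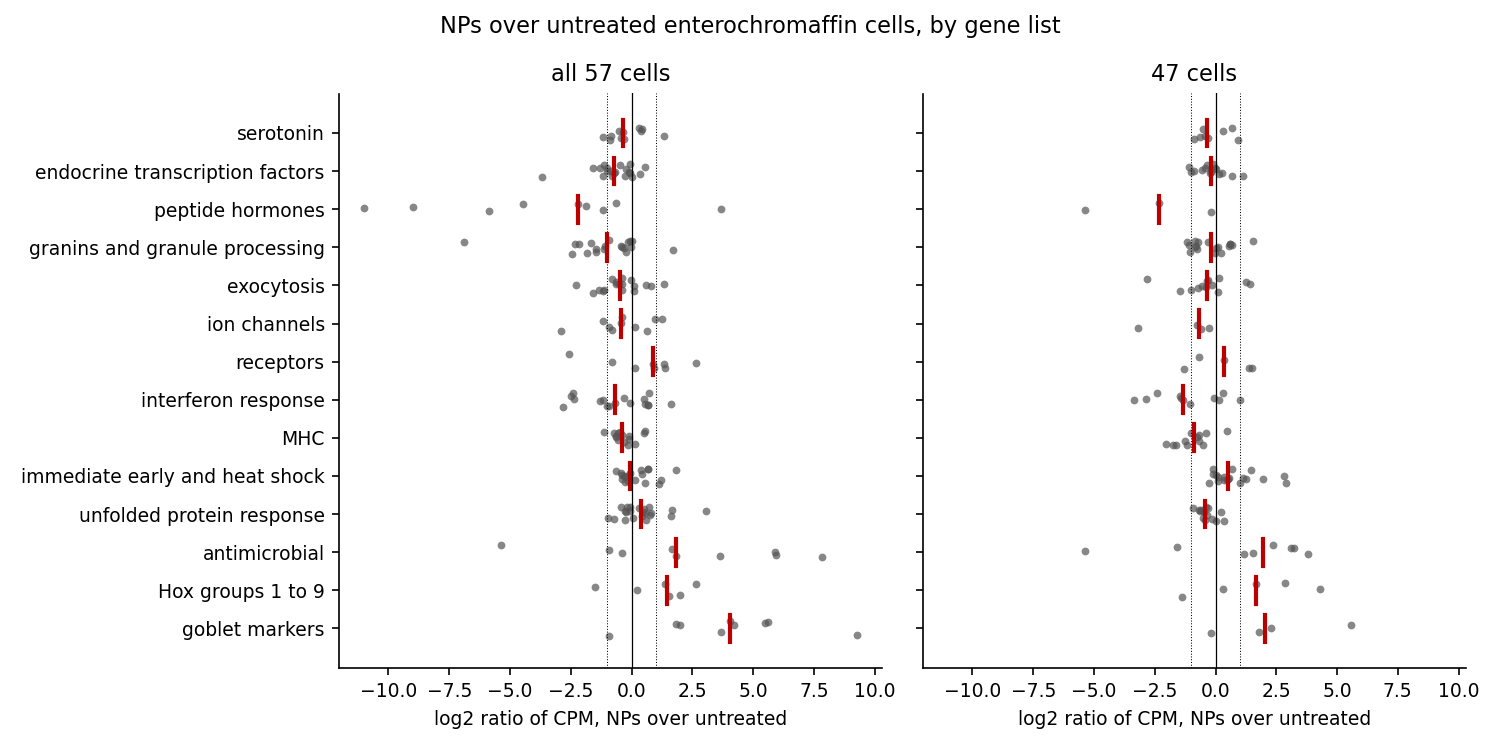
Log2 ratio of CPM, NPs over untreated, for each measured gene of 14 lists, in all 57 cells (left) and in the 47 cells (right). Points are genes, red bars are list medians and dotted lines mark 2-fold; the goblet markers have a median of 4.04 in all cells and 2.04 in the 47, and granins and granule processing -1.02 and -0.17.

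Endocrine transcription factors and granule genes had low medians in all cells and medians closer to 0 in the 47 cells. Of 28 listed endocrine transcription factors, 20 were measured, of which 0 were past 2-fold higher and 6 lower, for a median log2 ratio of -0.71, against 1 higher and 2 lower of 16 in the 47 cells and a median of -0.18. With cells thinned to 2000 UMIs 4 were measured, and their median was 0.52. Insm1 stood at 172 CPM in NPs and 343 CPM in untreated cells, ratio 0.501 (0.339 to 0.753), and Neurod1 at 296 and 361 CPM, ratio 0.821 (0.577 to 1.19). The ETS factor Etv1 stood apart, at 20.7 CPM in NPs cells and 264 CPM in untreated cells, ratio 0.0785 (0.0342 to 0.165). Of its 30 untreated UMIs, 43.3% lay in 1 peptide-rich cell. In the 47 cells it stood at 19.7 and 206 CPM, from 4 and 13 UMIs, too few to be measured there. In serotonin synthesis, storage and release, 11 of 16 listed genes were measured, of which 1 was higher (Maoa) and 1 lower (Tph1), for a median log2 ratio of -0.35, and 0 of 8 either way in the 47 cells, where the ratio of Maoa was 1.89 (0.929 to 4.36).

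Of 25 listed granin and granule-processing genes, 20 were measured, of which 1 was higher and 10 lower, for a median log2 ratio of -1.02, against 1 higher and 3 lower of 18 and a median of -0.17 in the 47 cells. Resp18 stood at 232 CPM in NPs and 1162 CPM in untreated cells, ratio 0.200 (0.154 to 0.259), with 0.590 (0.416 to 0.845) in the 47 cells, and 60% of its untreated UMIs lay in 1 cell. Scg5, the chaperone of a prohormone convertase, stood at 215 CPM in NPs and 950 CPM in untreated cells, ratio 0.227 (0.172 to 0.300), and 0.484 in the 47 cells. Cpe, the carboxypeptidase that trims peptide precursors, stood at 284 and 792 CPM, ratio 0.358 (0.273 to 0.473), and 0.614 in the 47 cells. Pam, which amidates peptides such as substance P, stood at 193 and 686 CPM, ratio 0.281 (0.206 to 0.384), and 0.472 in the 47 cells. The prohormone convertase gene Pcsk1 was the 1 higher member, with 28 UMIs in NPs and 2 UMIs in untreated cells, ratio 3.30 (0.831 to 28.6). With each cell thinned to 2000 UMIs, the list median was 0.31, and the log2 ratio was 0.28 for Cpe, 0.85 for Pam and -0.36 for Pcsk1, so these directions differed between the summed and the thinned counts.

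In the release machinery, 18 of 32 listed genes were measured, of which 1 was higher and 5 lower, for a median log2 ratio of -0.46, against 2 higher and 2 lower of 13 in the 47 cells. With cells thinned to 2000 UMIs 3 were measured, with a median of 0.32. Rab27b stood at 72.5 CPM in NPs and 352 CPM in untreated cells, ratio 0.206 (0.127 to 0.333), and 0.142 in the 47 cells. Syt7, a calcium sensor of granule fusion, stood at 99.5 and 299 CPM, ratio 0.332 (0.210 to 0.532), and 0.363 in the 47 cells. Snap25 stood at 135 and 343 CPM, ratio 0.392 (0.260 to 0.600), but had a ratio of 0.599 in the 47 cells, within 2-fold, and a log2 ratio of 0.32 with cells thinned to 2000 UMIs. Rab3c was higher instead, at 354 CPM in NPs and 202 CPM in untreated cells, ratio 1.75 (1.13 to 2.84), and 2.37 in the 47 cells. The vesicle protein gene Sv2c had 32 UMIs in NPs cells, in 17 of 43, and none in untreated cells, at least 2.51-fold higher.

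Of 43 listed ion channels 10 were measured, of which 1 was higher and 2 lower, against 0 and 1 of 4 in the 47 cells. Of 45 listed receptors 8 were measured, of which 3 were higher and 1 lower, against 2 and 1 of 5 in the 47 cells. The median log2 ratio of the ion channels was -0.42, but 0.53 as means over cells. Piezo2 stood at 51.8 CPM in NPs cells and 387 CPM in untreated cells, ratio 0.134 (0.0785 to 0.223), and 59.0 and 540 CPM in the 47 cells, ratio 0.109 (0.0516 to 0.217). It was found in 11 of 43 NPs cells and 6 of 14 untreated cells, and in 0.434% and 0.142% of other barcodes. With each cell thinned to 2000 UMIs, which left out 11 NPs and 4 untreated cells, it was found in 12.5% of NPs cells (4 of 32, 3.51 to 29.0%) and 50% of untreated cells (5 of 10, 18.7 to 81.3%). The thinned intervals overlap, and the numbers of cells limit what can be read from them.

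Olfr78 stood at 182 CPM in NPs cells and 1074 CPM in untreated cells, ratio 0.170 (0.128 to 0.225), and 339 and 841 CPM in the 47 cells, ratio 0.404 (0.278 to 0.589). Thinned, it was found in 25% of NPs cells (8 of 32, 11.5 to 43.4%) and 70% of untreated cells (7 of 10, 34.8 to 93.3%). Olfr558, another receptor of short fatty acids, had 33 UMIs in 13 NPs cells and none in untreated cells, at least 2.59-fold higher. Scn3a stood at 280 CPM in NPs and 625 CPM in untreated cells, ratio 0.448 (0.333 to 0.605), but at 0.594 (0.431 to 0.826) in the 47 cells, within 2-fold. Gucy2c, the guanylyl cyclase receptor of guanylin, stood at 201 and 79.2 CPM, ratio 2.54 (1.28 to 5.72), and Ffar2, a short-chain fatty acid receptor, at 236 and 211 CPM, ratio 1.12 (0.715 to 1.82). The irritant channel Trpa1 had no UMI in either group, which allows up to 3 UMIs in each library's cells.

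Peptide hormones differed mostly through single cells. Of 26 listed, 9 were measured, of which 1 was higher and 7 lower, for a median log2 ratio of -2.21. Pyy stood at 750 CPM in NPs and 44177 CPM in untreated cells, ratio 0.0170 (0.0152 to 0.0189), with 97% of its UMIs in 1 cell of each library. Insl5, from insulin-like hormone 5, had 0 UMIs in NPs and 1454 UMIs in untreated cells, at least 2059-fold lower, and Gcg, the proglucagon gene, 4 and 474 UMIs. The summed L-cell and other peptide markers stood at 1125 CPM in NPs and 61249 CPM in untreated cells, and at 78.7 and 222 CPM in the 47 cells. Secretin, from Sct, stood at 288 CPM in NPs and 1056 CPM in untreated cells, ratio 0.273 (0.212 to 0.351), and 0.200 (0.146 to 0.273) in the 47 cells. Sct was carried by 15 of 43 NPs cells and 6 of 14 untreated cells, and by 23.4% and 3.33% of other barcodes. Of its 120 untreated UMIs, 59 lay in 1 cell and 43 in another, both among the 47 cells. Of its 139 NPs UMIs, 56 lay in the peptide-rich cell. The median cell of either library held none, so the Sct ratios rest on few cells. Iapp, the islet amyloid peptide gene, had 5 UMIs in NPs and 26 UMIs in untreated cells, with 88.5% of the untreated ones in 1 cell.

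Ratios were ranked among genes at least as high in enterochromaffin cells as in other barcodes of the library where they were higher. The 12 genes with the largest ratios were mainly genes of goblet and other epithelial cells, and 11 of them had over 50% of their NPs UMIs in 1 cell. Muc2, the main gel-forming mucin, stood at 5472 CPM in NPs cells and 8.80 CPM in untreated cells, from 2641 UMIs and 1 UMI, ratio 622 (112 to 24569). Mptx1, a mucosal pentraxin, had 5993 UMIs in NPs and 4 UMIs in untreated cells. Retnlb, a bactericidal goblet protein, had 2946 UMIs in NPs cells and none in untreated cells, at least 231-fold higher. Spink4, a goblet protease inhibitor, stood at 6850 CPM in NPs and 141 CPM in untreated cells, ratio 48.6 (29.9 to 85.2). Also among the 12 were Pla2g2a, Ang4, Itln1, Clca1, Fcgbp, Nts, Ccl6 and Pfkl. In the 47 cells the ratio of Muc2 was 47.7 (8.44 to 1898), that of Mptx1 12.7 (4.25 to 62.5) and that of Spink4 3.50 (1.62 to 8.99), and Retnlb was at least 9.30-fold higher. There Ang4, Clca1, Fcgbp, Nts and Ccl6 had too few UMIs to be measured. Pfkl, a glycolytic enzyme, had 45 UMIs over 20 NPs cells and 1 UMI in untreated cells, ratio 10.6 (1.81 to 428). In the 47 cells it had 25 UMIs in NPs and none in untreated, at least 2.58-fold higher. Its log2 ratio fell as low as 0.06 among the alternative settings.

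Goblet genes were also higher in NPs outside the enterochromaffin cells. Muc2 was found in 95.3% of NPs and 7.14% of untreated enterochromaffin cells, and in 94.4% of NPs and 20.8% of untreated other barcodes. Mptx1 was found in 86.0% and 21.4% of the cells, against 91.3% and 20.1% of other barcodes, so both lay near or below the share in other cells. Summed over 10 goblet markers, the cells stood at 21527 CPM in NPs and 722 CPM in untreated, the 47 cells at 2160 and 587 CPM, and other barcodes at 18962 and 6688 CPM. Of 9 measured goblet markers, 8 were higher and 0 lower in NPs cells; in the 47 cells, 3 of 4 were higher. The part of free RNA and of joined cells in this was not tested. The plasma cell transcript Igkc, which epithelial cells should lack, was found in 81.4% of NPs and 78.6% of untreated cells, beside 82.2% and 82.4% of other barcodes.

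All 10 listed markers of enterochromaffin cells were detected in both groups, but 4 of them are the rule genes, which had to be present. Markers of tuft and non-epithelial cells were mostly low, apart from the lists of B and plasma cell markers and of enteric neuron and glia markers. The neuron and glia list summed to 201 CPM in NPs cells and 528 CPM in untreated cells, against 4.93 and 2.90 CPM in other barcodes. At least 1 of its UMIs was found in 32 NPs cells and 11 untreated cells. Of 8 tuft markers, 7 in NPs and 8 in untreated cells were at 0; of 9 T and NK markers, 8 and 2; of 8 myeloid markers, 2 and 8; of 8 stromal and endothelial markers, 4 and 8; and of 8 mast markers, 7 and 5. Only Kit was found among the mast markers of NPs cells, with 53 UMIs in 18 cells. The B and plasma cell markers summed to 421 CPM in NPs and 2042 CPM in untreated cells, per cell 0 to 6221 CPM and 0 to 25575 CPM. Absorptive markers summed to 7807 CPM in NPs and 2077 CPM in untreated cells, with 4 of 9 measured higher and 4 lower, and to 4797 and 3063 CPM in the 47 cells, with 3 of 8 higher and 3 lower. Cycling genes were rare, with Mki67 at 42 UMIs in 10 NPs cells, 22 of them in 1 cell, and 0 in untreated cells.

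Of 22 listed antimicrobial genes, 9 were measured, of which 6 were higher and 1 lower in NPs cells, for a median log2 ratio of 1.82, and 6 and 2 of 8 in the 47 cells. Reg3b, a bactericidal lectin, had 158 UMIs in 12 NPs cells and none in untreated cells, at least 12.4-fold higher, with a bound of 13.95-fold in the 47 cells. In other barcodes Reg3b stood at 1245 CPM in NPs and was not found in untreated. Pigr, the receptor that carries IgA across the epithelium, stood at 2194 CPM in NPs and 686 CPM in untreated cells, ratio 3.20 (2.54 to 4.08), and 5.22 (3.25 to 8.93) in the 47 cells, with 2647 and 1708 CPM in other barcodes. The serum amyloid gene Saa1 was the lower member, with 4 UMIs in NPs and 39 UMIs in untreated cells. In the 47 cells Lypd8, a secreted protein that keeps flagellated bacteria from the mucosa, was also lower, at 1333 CPM in NPs and 4015 CPM in untreated, with 5139 and 16372 CPM in other barcodes.

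Of 34 listed interferon-response genes, 17 were measured, with 1 higher and 6 lower in NPs cells, for a median log2 ratio of -0.67, and 0 higher and 7 lower of 11 in the 47 cells, for a median log2 ratio of -1.33. Ifi27l2a stood at 131 CPM in NPs and 924 CPM in untreated cells, ratio 0.141 (0.102 to 0.195), and 0.0989 (0.0582 to 0.162) in the 47 cells. Rsad2, an antiviral enzyme, stood at 43.5 and 246 CPM, ratio 0.177 (0.0953 to 0.322). Isg15, a ubiquitin-like modifier, had 10 UMIs in NPs and 12 UMIs in untreated cells, 0.196 as a ratio (0.0759 to 0.495). Only 3 cells of each group held any, with 7 of the NPs UMIs and 10 of the untreated UMIs in 1 cell each, so this ratio rests on single cells. Other barcodes were lower in NPs as well, with Ifi27l2a at 380 CPM in NPs and 2712 CPM in untreated other barcodes, and Isg15 at 82.2 and 700 CPM. Of 21 listed antigen-presentation genes, 15 were measured, with 0 past 2-fold higher and 1 lower, for a median log2 ratio of -0.41, and 0 higher and 6 lower of 12 in the 47 cells, for a median log2 ratio of -0.89. B2m, the light chain of class I molecules, stood at 1432 CPM in NPs and 2376 CPM in untreated cells, ratio 0.603 (0.523 to 0.696), and 0.416 (0.341 to 0.508) in the 47 cells. Cd74, the class II invariant chain, stood at 1235 and 1936 CPM, ratio 0.638 (0.546 to 0.748), and 0.321 (0.254 to 0.405) in the 47 cells. Other barcodes stood at 2309 CPM of Cd74 in NPs and 3993 CPM in untreated.

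Immediate early and heat shock genes, which cells switch on soon after a stimulus or a stress, had 19 of 20 listed members measured, with 3 higher and 0 lower in NPs cells, for a median log2 ratio of -0.05, and 6 higher and 0 lower in the 47 cells, for a median log2 ratio of 0.50. Ier2 stood at 748 CPM in NPs and 211 CPM in untreated cells, ratio 3.54, and 7.10 (3.79 to 15.0) in the 47 cells. The chaperones Dnajb1 and Hspa1a stood at 762 and 690 CPM in NPs cells and 326 and 317 CPM in untreated cells. Other barcodes stood higher in NPs as well, with Ier2 at 470 CPM in NPs and 148 CPM in untreated, and Hspa1a at 442 and 133 CPM. Fos stood at 1832 CPM in NPs and 2842 CPM in untreated cells, ratio 0.644 (0.567 to 0.734), and 0.943 in the 47 cells.

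The unfolded protein response had 22 of 26 listed members measured, with 3 higher and 0 lower, for a median log2 ratio of 0.37, and 0 of 14 either way in the 47 cells, for a median log2 ratio of -0.42. Hspa5, the main chaperone of the endoplasmic reticulum, stood at 719 CPM in NPs and 502 CPM in untreated cells, ratio 1.43 (1.08 to 1.93), but at 0.620 in the 47 cells. Metallothionein and antioxidant genes had 14 of 20 listed members measured, with 4 higher and 0 lower and a median of 0.12, against 3 higher and 1 lower of 10 and a median of -0.16 in the 47 cells. Higher in both sets were the superoxide dismutases Sod1, ratio 2.83 (1.48 to 6.04), and Sod2, ratio 5.81 (1.91 to 28.8).

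Of the 12 genes with the smallest ratios, 7 had over 50% of their untreated UMIs in 1 cell. Wfdc2, a secreted protease inhibitor, was found in most untreated cells, but unevenly. Of its 175 untreated UMIs, 69 lay in a peptide-rich cell and 42 in the deep cell. In all cells Wfdc2 stood at 62.2 CPM in NPs and 1540 CPM in untreated cells, ratio 0.0404 (0.0264 to 0.0597). Without the deep and peptide-rich cells of both libraries, its ratio was 0.0958 (0.0521 to 0.168). Wfdc2 was found in 11 of 43 NPs cells and 12 of 14 untreated cells. In other barcodes it was found in 14.3% in NPs and 56.9% in untreated, at 52.0 and 1172 CPM. Gsdma, a pore-forming gasdermin, was nearly absent from other barcodes, at 0.0817 CPM in NPs and 0.0805 CPM in untreated. It had 6 UMIs in 3 NPs cells and 32 UMIs in 6 untreated cells, ratio 0.0441 (0.0151 to 0.107), and thinned it was found in 3.13% of NPs and 50% of untreated cells. Also among the 12 were Insl5, Gcg, Scg2, Pyy, Cldn14, Iapp, Rtn1, Cyp2c68, Etv1 and Hist1h4d.

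Hox genes keep a code of place along the gut, with groups 10 to 13 marking the hind end. These groups made up 15.7% of Hox UMIs in NPs cells (75 of 478, 12.5 to 19.3%) and 71.8% in untreated cells (94 of 131, 63.2 to 79.3%). The shares were 15.9% and 71.4% in the 47 cells, and 11.6% and 48.6% with Hoxb13 left out. They were 8.78% in NPs and 63.9% in untreated other endocrine cells, and 9.73% and 77.2% in all other kept barcodes. Hoxb13, the hindmost gene of its cluster, stood at 45.6 CPM in NPs cells and 519 CPM in untreated cells, and thinned it was found in 9.38% of NPs (3 of 32, 1.98 to 25.02%) and 80% of untreated cells (8 of 10, 44.4 to 97.5%). Unthinned, it was found in 20.9% of NPs and 64.3% of untreated cells, and in 8.50% and 36.0% of other barcodes.

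Among Hox genes of lower groups the counts ran the other way, with 4 of 6 measured higher and 1 lower in NPs cells. Hoxb9 stood at 211 CPM in NPs and 52.8 CPM in untreated cells, ratio 4.00 (1.78 to 11.2), and Hoxb8 had 37 UMIs in 20 NPs cells and none in untreated cells. Cdx2, a homeobox gene of intestinal identity, had 74 UMIs in 17 NPs cells and none in untreated cells, at least 5.81-fold higher, and stood at 217 CPM in NPs and 37.9 CPM in untreated other barcodes. The position along the gut that the cells came from and the NPs treatment cannot be told apart in any comparison of the 2 libraries given here.

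**Figure D5:**
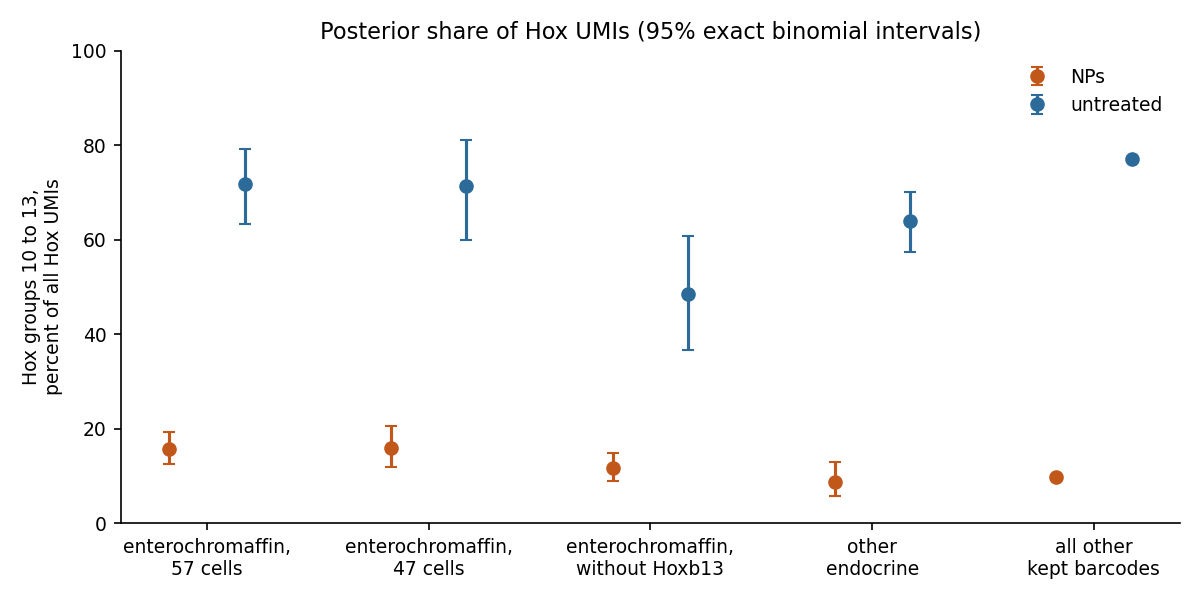
Share of Hox UMIs from groups 10 to 13, in percent with exact binomial 95% intervals, for NPs (left of each pair) and untreated. The NPs share lies between 8.78 and 15.9% and the untreated share between 48.6 and 77.2% in every set of cells shown.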

How the data were processed

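The authors deposited raw UMI counts per gene and barcode for 4 mouse libraries, made with 10x 3′ chemistry per the labels' protocols and with Cell Ranger 5.0.1 on GRCm38 per the submitters' processing notes. The intestinal libraries held 127772838 UMIs in 19918 barcodes (NPs) and 116394801 in 20368 barcodes (untreated).

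Counts were filtered as stated, summed over the cells of a library and divided by their total (CPM). Ratios carry conditional binomial 95% intervals. These were tried on simulated Poisson counts without spread between cells, so the trial does not show how they hold for uneven cells. No p-value was computed, since each group had 1 library. With 0 UMIs on one side, 3 counts were set in its place. Named genes were the rule genes, the 12 largest and 12 smallest NPs over untreated ratios among genes at least as high in the cells as in other barcodes, 12 leading genes, up to 12 from each other contrast, and up to 6 members per list. Mitochondrial, ribosomal protein, haemoglobin, Gm-numbered, Rik and antigen receptor genes were left out of the ranking. The members and all gene lists were chosen with earlier results of these data known.

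Doublets were kept; removing barcodes with a Scrublet score over 0.25 was an alternative. Other alternatives changed the mitochondrial, depth, marker and level limits, the scaling, and the weighting of cells. For shares of cells, each cell was thinned to 2000 UMIs. Promoters came from the RefSeq table. The work used scanpy 1.11.5 for Scrublet, scipy 1.17.1 for intervals, and pandas 2.3.3, matplotlib 3.10.9 and numpy 2.4.6 under Python 3.11.15. A few results are not reported here.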

Additional observations from a re-analysis of the deposited data

How the results depend on the processing

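No paired analysis was possible because each group had 1 library, and for the same reason no replicate could be left out. The share of enterochromaffin cells among kept barcodes ranged from 0.227 to 0.501% in NPs and from 0.0530 to 0.101% in untreated over the alternatives, with the 0.227% from no mitochondrial limit. The posterior Hox share moved past its counting interval only without Hoxb13, to 11.6% in NPs and 48.6% in untreated. Without cells above 3 times the median depth, the number of genes at least 2-fold higher in NPs was 404, and that of genes at least 2-fold lower in NPs was 214. Thinning to 2000 UMIs gave 102 higher and 51 lower genes. Means over cells gave 998 higher and 616 lower, and a mean of at least 100 CPM gave 123 higher and 155 lower. Without deep and peptide-rich cells, an alternative added after seeing the data, 328 were higher and 237 lower of 2560 measured. The number of genes measured changed between alternatives, so these counts are not shares of a common total. The cause of these shifts was not tested, other than fewer genes being measured under thinning, the 100 CPM limit and fewer cells.

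Among log2 ratios past 2-fold in all cells, these reversed: Cartpt to 0.019 under a stricter UMI minimum and to 0.042 with Tph1 alone at least 3, Hist1h4d to 0.25 with Tph1 alone and to 0.45 without peptide-rich cells (added after seeing the data), Fcgbp to -1.32 without cells above 3 times the median, and Tph1 to 0.027 as a mean over cells. Thinning reversed Cpe (0.28), Pam (0.85), Pcsk1 (-0.36), Snap25 (0.32), Hoxa9 (0.49) and the granin list median (0.31). Values within 2-fold also changed sign, among them Slc18a1 (0.56) and the list medians of ion channels (0.53) and antioxidant genes (-0.74) as means over cells, and that of serotonin genes (0.06) without cells above 3 times the median. Thinning did so for transcription factors (0.52) and exocytosis genes (0.32). The cause was not tested. Of the 12 genes named with the largest ratios 9 stayed past 2-fold under every alternative that gave a value, and of the 12 with the smallest 11. Among gene and list values, 207 moved, 12 reversed and 1294 did neither; 15 had no value. With 43 and 14 cells, genes of few UMIs could not be compared.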
